A study of Homo sapiens with 8 samples.

Results

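TOPK and the mitogen-activated protein (MAP) kinases were followed at the level of RNA in HaCaT cells, a spontaneously immortalised line of human keratinocytes. 9 genes were chosen by name from the 17131 genes of the table: PBK, which encodes TOPK, the MAP kinases MAPK3, MAPK8, MAPK9, MAPK13 and MAPK14, and the MAP kinase kinases MAP2K3, MAP2K4 and MAP2K6. All 8 libraries came from wild-type HaCaT cells under M5, a psoriasis model in which TNF-α, oncostatin M, IL-1α, IL-17A and IL-22 are added together, each at 10 ng/mL, here for 24 h. The variable was OTS514, a small molecule that blocks the activity of the TOPK protein. In the protocol with OTS514, cells received 10 nM of it for 12 h before M5 and again together with M5. 4 libraries were titled M5_O5 and 4 were titled M5, and no library without M5 was among them. By its wording M5_O5 would be the group with OTS514, but the treatment field of those libraries says that they had none and that of the M5 libraries names the inhibitor. Every direction is therefore given between titles: "higher in M5_O5" means higher with OTS514 if the titles are right and lower with OTS514 if the entered treatment is right. Nothing in the labels says that the 4 libraries of a title came from separate cultures, so the p-values measure the spread between these libraries, which may be technical. A single immortalised line stands for the keratinocyte here.

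MAP kinases work in a relay. A MAP kinase kinase kinase phosphorylates a MAP kinase kinase, which in turn phosphorylates a threonine and a tyrosine in the activation loop of a MAP kinase. MAPK3 (ERK1), MAPK8 and MAPK9 (JNK1 and JNK2), and MAPK13 and MAPK14 (p38δ and p38α) end the 3 classical branches, and in keratinocytes these branches carry signals of growth factors, stress and inflammatory cytokines. MAP2K3 (MKK3) and MAP2K6 (MKK6) activate p38, and MAP2K4 (MKK4) activates JNK and can also act on p38. TOPK is a serine/threonine kinase related to the MAP kinase kinases, is made mainly in dividing cells, and is phosphorylated by CDK1 in mitosis. RNA-seq counts transcripts and does not see the phosphorylation by which these kinases are switched on.

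MAP2K3, MAP2K4 and MAP2K6 act on the activation loops of JNK or p38. The loops of all members but PBK are shown because they are sites at which upstream kinases act. They were read from the GENCODE v29 transcripts of GRCh38, 5′ to 3′ on the strand of the gene. In the MAP kinases the capitals mark the codons of the threonine, the residue between and the tyrosine.
MAPK3, chr16:30118095-30118103, minus strand, exon 4: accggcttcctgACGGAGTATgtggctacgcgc
MAPK8, chr10:48420251-48420259, plus strand, exon 5: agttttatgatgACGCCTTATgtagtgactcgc
MAPK9, chr5:180249034-180249042, minus strand, exon 6: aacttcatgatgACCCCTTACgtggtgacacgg
MAPK13, chr6:36136698-36136706, plus strand, exon 7: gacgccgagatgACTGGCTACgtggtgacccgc
MAPK14, chr6:36075890-36075898, plus strand, exon 7: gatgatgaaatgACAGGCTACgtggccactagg
The coordinates are those of the capitals, and exons are counted from the start of the transcript used. MAPK8 and MAPK9 shared 25 of the 33 bases shown, MAPK13 and MAPK14 shared 23, and MAPK3 and MAPK14 shared 16.

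In the MAP kinase kinases the capitals run from the codon of the serine to the codon of the threonine that upstream kinases phosphorylate.
MAP2K3, chr17:21304509-21304523, plus strand, exon 8: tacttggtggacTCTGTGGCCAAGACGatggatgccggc
MAP2K4, chr17:12113316-12113330, plus strand, exon 7: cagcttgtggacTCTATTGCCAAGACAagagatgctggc
MAP2K6, chr17:69523597-69523611, plus strand, exon 8: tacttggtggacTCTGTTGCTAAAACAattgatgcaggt
MAP2K3 and MAP2K6 shared 32 of these 39 bases and MAP2K4 shared 29 with MAP2K3. Reads of related genes are most easily mixed up where longer stretches are the same. In the GENCODE transcript used for each gene, PBK and the 5 MAP kinases had no identical window of 50 bases in common with the transcripts of another gene. MAP2K4 shared 7.28% of its windows with the pseudogene MAP2K4P1 and MAP2K3 shared 3.5% with AC243725.1. How far this changed the levels of these 2 members was not tested, and the shares do not measure it. MAP2K6 shared 0.562%.

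The libraries held between 13708044 and 16922673 counts. All 8 keratinocyte markers examined reached 1 TPM (a transcript level scaled for length and for the library's total), with summed levels of 12290 to 14510 TPM in the M5_O5 and 14040 to 15210 TPM in the M5 libraries. Of 6 fibroblast markers 1 reached 1 TPM, with summed levels of 10.3 to 10.8 TPM in M5_O5 and 13.1 to 15.4 TPM in M5. Endothelial and melanocyte markers summed to less than 1 TPM in every library. Of the 4 leukocyte markers, PTPRC was at 0 and CD14 alone reached 1 TPM, at 44.8 to 54.3 TPM, which gave summed levels of 45.4 to 54.8 TPM in M5_O5 and 50.1 to 53.0 TPM in M5. The part of other cells in the values below was not tested.

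By the deposited TPM, MAP2K3 was the most abundant of the 9 genes per transcript length and MAP2K6 the least. MAPK13 had more reads, 1398 to 1715 in a library against 1119 to 1448 for MAP2K3. The order given here therefore rests on the transcript lengths behind the TPM. Across the 8 libraries, MAP2K3 stood at 66.2 ± 4.9 TPM (SD, n = 8) and its relative MAP2K6 at 0.01 to 0.18 TPM. MAPK14 followed at 41.8 ± 4.2 TPM (SD, n = 8), and its range did not overlap that of MAP2K3 or of the next gene. MAP2K4 (30.2 ± 2.5 TPM), MAPK9 (28.4 ± 2.9 TPM), MAPK13 (26.2 ± 1.2 TPM) and MAPK3 (25.5 ± 3.5 TPM, all SD, n = 8) formed a middle group in which each gene's range overlapped that of its neighbour in the order. MAPK8 was lower, at 11.9 ± 1.4 TPM (SD, n = 8). PBK was the second lowest, between 0.55 and 4.05 TPM.

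**Figure D1:**
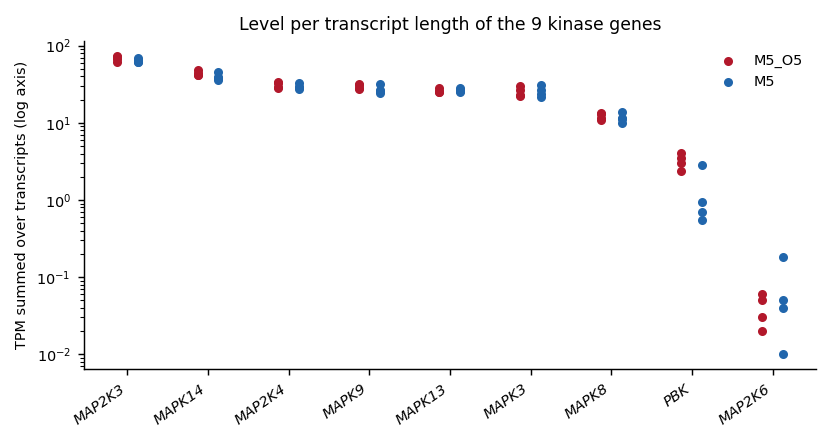
Level per transcript length of the 9 genes, in TPM summed over the transcripts of a gene on a log axis, with a point for each of the 4 M5_O5 (red) and 4 M5 (blue) libraries. The genes stand in the order of their mean, from MAP2K3 at 66.2 TPM down to MAP2K6, and only PBK and MAP2K6 lie below 10 TPM in every library.

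Within their families, the members held unequal shares. MAPK9 made up 70.4% ± 0.54 of the JNK transcripts in M5_O5 and 69.6% ± 1.8 in M5 (SD, n = 4), and MAPK8 most of the rest, with MAPK10 at 0.1 to 0.32 TPM. MAPK14 made up 44.0% ± 1.4 of the p38 transcripts in M5_O5 and 43.1% ± 2.7 in M5, and MAPK13 26.2% ± 1.8 and 28.6% ± 0.6 (SD, n = 4). These shares are of the deposited TPM. By reads MAPK13 came first, with 1398 to 1715 in a library against 888 to 1104 for MAPK14. The order of MAPK14 and MAPK13 thus rests on the lengths and read assignment behind the TPM, which were not tested. The GENCODE transcripts used above had 2052 bases for MAPK13 and 3779 for MAPK14, and those lengths would put MAPK13 first. MAP2K3 supplied 99.9% of the transcripts of the p38-specific pair MAP2K3 and MAP2K6 in both groups.

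PBK was higher in M5_O5, and among the 8 of the 9 genes that could be tested it alone passed. It stood at 3.60, 2.93, 2.25 and 3.15 CPM (counts scaled to the library size, adjusted by TMM) in M5_O5 replicates 1 to 4, from 62, 51, 38 and 53 reads. In the M5 replicates it stood at 2.63, 0.588, 0.987 and 0.685 CPM, from 36, 9, 15 and 11 reads. 3 of the 4 M5 libraries were below every M5_O5 library, while M5 replicate 1 lay above M5_O5 replicate 3, so the groups overlapped. The means were 2.98 ± 0.56 and 1.22 ± 0.95 CPM (SD, n = 4), and PBK was 2.5-fold higher in M5_O5, a log2 fold change of 1.32 (SE 0.34, 95% interval 0.60 to 2.05, adjusted p = 0.00738, edgeR's quasi-likelihood test with Benjamini-Hochberg adjustment over 12434 genes). The two-sided exact permutation test of PBK alone gave p = 0.0571, where 0.0286 is the smallest that 4 against 4 allows. Without M5 replicate 1 the log2 fold change was 1.98 (adjusted p = 1.87e-05, edgeR), and leaving out any other library gave 1.10 to 1.44. In such bulk RNA, fewer cells that make a transcript and less of it per cell cannot be told apart.

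**Figure D2:**
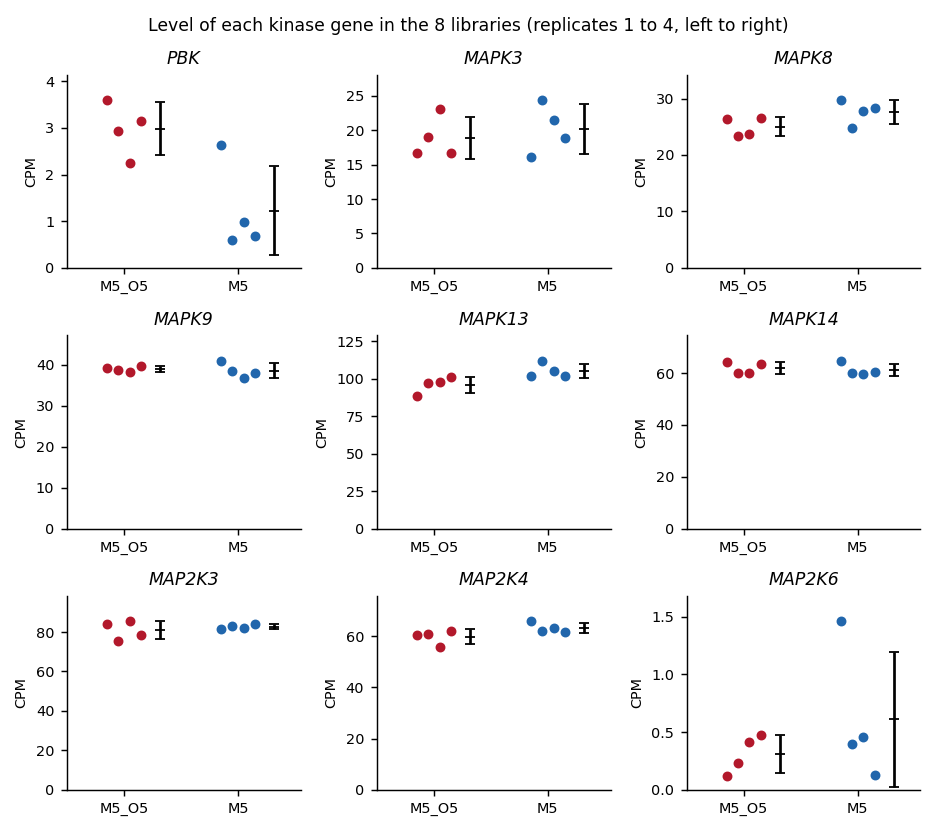
CPM (TMM-scaled, each axis from 0) of the 9 genes in the 4 M5_O5 (red) and 4 M5 (blue) libraries, replicates 1 to 4 from left to right, with the mean and SD in black. PBK lies below 1 CPM in 3 of the M5 libraries and at 2.63 CPM in M5 replicate 1, and the groups of MAPK13 do not overlap although they lie close together.

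The count for the 9 genes was read against a background in which many genes differed. Of the 12434 genes tested, 37.1% passed at an adjusted p under 0.05, 19.5% higher and 17.6% lower in M5_O5, and 3.2% passed with a change of at least 2-fold, 357 genes higher and 41 lower. Among the 8 members with enough reads for the test, 1 passed, PBK, which also exceeded 2-fold. The split of the passing genes depended on the scaling, with 52.5% of them higher in M5_O5 under TMM, 79.3% with library size alone and 81.1% with limma on log2(TPM + 1). These 2 settings moved the median log2 fold change of all genes from 0.01 to 0.13 and 0.12. PBK passed under each of them, at 1.44 and 0.99.

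The activators of p38 and JNK gave no difference that passed. MAP2K3 stood at 84.2, 75.7, 85.4 and 78.5 CPM in M5_O5 and at 81.7, 83.2, 82.1 and 84.3 CPM in M5. Its groups overlapped widely, and the log2 fold change stood at -0.03 (95% interval -0.15 to 0.09, adjusted p = 0.671, edgeR). MAP2K4 stood at 60.6, 60.9, 55.7 and 62.2 CPM in M5_O5 and at 65.8, 62.3, 63.4 and 61.7 CPM in M5. Only M5_O5 replicate 4 reached into the range of the M5 libraries, and the log2 fold change came to -0.08 (95% interval -0.20 to 0.04, adjusted p = 0.279, edgeR). The exact permutation test of MAP2K4 alone gave p = 0.0571, the same as for PBK. MAP2K6 had 2, 4, 7 and 8 reads in M5_O5 and 20, 6, 7 and 2 reads in M5, too few to pass the filter on low counts. The highest and one of the lowest counts of MAP2K6 were both in M5. Tested without the filter its log2 fold change was -0.92 (adjusted p = 0.262, edgeR), and what change could have been seen at these counts was not tested.

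Neither of the p38 members passed. MAPK14, the ubiquitous p38α, stood at 64.2, 60.0, 60.2 and 63.6 CPM in M5_O5 and at 64.8, 60.2, 59.8 and 60.4 CPM in M5. The ranges nearly coincided, and the log2 fold change was 0.02 (95% interval -0.10 to 0.14, adjusted p = 0.833, edgeR). MAPK13, the p38δ of epithelia, stood at 88.2, 97.4, 97.6 and 100.8 CPM in M5_O5 and at 102.0, 112.0, 105.0 and 101.9 CPM in M5. Every M5 library was above every M5_O5 library, the nearest standing at 101.9 and 100.8 CPM. MAPK13 was at 91.2% of its M5 level in M5_O5 (log2 fold change -0.13, 95% interval -0.26 to -0.01, unadjusted p = 0.0373, adjusted p = 0.0858, edgeR). The exact permutation test gave the smallest p it can give, 0.0286, as it does for any gene whose groups do not overlap. MAPK13 was the 1 member of 9 whose groups did not overlap in CPM, and 33.6% of all tested genes had such groups. This separation depended on the scaling. In TPM the groups overlapped, at 25.22 to 28.0 in M5_O5 and 25.09 to 27.96 in M5. The log2 fold change of MAPK13 stayed at -0.15 with RLE size factors (adjusted p = 0.0678, edgeR). It was -0.02 with library size alone (adjusted p = 0.835) and -0.04 with the expression trend removed (adjusted p = 0.639, both edgeR). On log2(TPM + 1) it was -0.01 (adjusted p = 0.938, limma).

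The JNK genes and MAPK3 also stayed within the spread of the libraries. MAPK8 stood at 26.3, 23.3, 23.8 and 26.6 CPM in M5_O5 and at 29.8, 24.8, 27.7 and 28.3 CPM in M5. Of the M5 libraries 3 were above all of M5_O5 and replicate 2 was not, and the log2 fold change was -0.15 (95% interval -0.31 to 0.02, adjusted p = 0.156, edgeR). MAPK9 was among the steadiest of the 9, at 39.1, 38.8, 38.1 and 39.8 CPM in M5_O5 and 41.0, 38.5, 36.7 and 37.9 CPM in M5. The M5 values enclosed those of M5_O5 (log2 fold change 0.02, 95% interval -0.11 to 0.14, adjusted p = 0.857, edgeR). MAPK3 varied most among the well-counted members, at 16.7, 19.0, 23.1 and 16.7 CPM in M5_O5 and 16.1, 24.4, 21.5 and 18.8 CPM in M5. Its groups overlapped over nearly their whole range, and its interval was the widest of the 7 (log2 fold change -0.10, 95% interval -0.37 to 0.17, adjusted p = 0.569, edgeR).

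**Figure D3:**
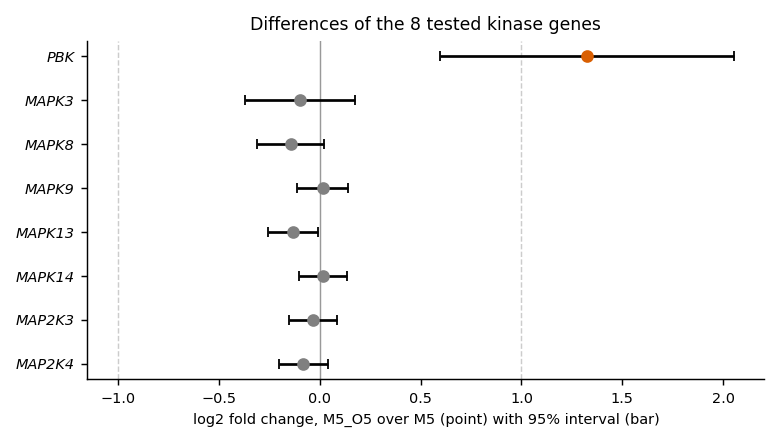
Log2 fold change of M5_O5 over M5 (points) with its 95% interval (bars, edgeR) for the 8 tested genes. PBK (orange) passed at an adjusted p under 0.05, the 7 others (grey) did not, and all 7 of their intervals lie between the dashed lines that mark a change of 2-fold.

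For the 7 tested members other than PBK, no interval reached a change of 2-fold in either direction, and the farthest bound was -0.37, for MAPK3. Like the p-values, these intervals cover only the spread between these libraries, which may be technical. The signs of their small differences were not fixed by the data: MAPK3, MAP2K3 and MAP2K4 turned positive with library size alone (0.02, 0.08 and 0.03), where the median of all genes was 0.13, and MAPK8 turned positive on log2(TPM + 1) with limma (0.07), where that median was 0.12.

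Related kinases were compared directly within each library. The log2 ratio of MAPK13 to MAPK14 was 0.46, 0.70, 0.70 and 0.66 in M5_O5 and 0.65, 0.90, 0.81 and 0.75 in M5. It was 0.15 lower on average in M5_O5 with ranges that overlapped (two-sided exact permutation test, p = 0.114). The log2 ratio of MAPK8 to MAPK9 was -0.57, -0.73, -0.68 and -0.58 in M5_O5 and -0.46, -0.64, -0.40 and -0.42 in M5. The difference was -0.16 (p = 0.0857, exact permutation), and M5 replicate 2 lay among the M5_O5 libraries. With TPM in place of CPM this difference was -0.05 (p = 0.543, exact permutation). MAP2K3 to MAP2K6 differed by 0.63 (p = 0.543, exact permutation), and by 0.03 without M5 replicate 1 and 1.23 without M5 replicate 4, with 2 to 20 reads of MAP2K6 in a library. None of the 3 ratios passed, and after adjustment over them the smallest permutation p was 0.171. A single ratio could not have passed after that adjustment, since the smallest unadjusted p is 0.0286. Without M5 replicate 1 the MAPK13 ratio differed by -0.19, and without M5 replicate 2 the MAPK8 ratio differed by -0.21, each with an unadjusted p of 0.0286, the smallest that the exact permutation of 4 against 3 allows.

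The choice of transcripts within the genes was examined as well. Of 8059 genes with at least 2 transcripts tested, 1.53% differed in transcript use between the titles (limma's diffSplice, adjusted p under 0.05), and none of the 7 members with such data did. The lowest adjusted p among them was 0.292, for MAP2K4, whose predicted transcript XM_005256755 had a log2 fold change of 0.76 against the rest of the gene. MAPK3, MAPK8, MAPK9, MAPK13, MAPK14 and MAP2K3 had adjusted p-values of 0.444 to 0.877 (limma). PBK had 1 transcript with enough reads. Its NM_018492 received 72.8% of the PBK reads on average over the M5 libraries and 90.2% over the M5_O5 libraries. This difference came from M5 replicate 4, whose 11 reads were all assigned to NM_001363040, while NM_018492 held at least 84.3% in every other library.

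Across the libraries, PBK followed genes of cell division. Among 11967 tested genes with at least 1 CPM on average, the 5 closest to PBK in centred log2 CPM over the 8 libraries were ZNF391 (root mean square difference 0.16), BIRC5 (0.19), CDK1 (0.21), KIF23 (0.22) and KIF18A (0.23). BIRC5 encodes survivin, CDK1 the kinase that drives entry into mitosis, KIF23 and KIF18A motor proteins of the spindle, and ZNF391 a zinc finger protein. Each of them was higher in M5_O5, with log2 fold changes between 1.22 and 1.53, and each was highest among the M5 libraries in replicate 1, as PBK was. These genes were selected by their likeness to PBK, so their agreement with it is a description.

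A list of 30 genes of the G2 and M phases of the cell cycle, of which BIRC5 and CDK1 are members, was also higher in the M5_O5 libraries. Its mean log2 CPM was 3.53, 3.43, 3.53 and 3.49 in M5_O5 and 3.06, 2.17, 2.01 and 2.01 in M5, so M5 replicate 1 stood between the other M5 libraries and M5_O5. M5 replicate 1 also stood apart from the other M5 libraries over the genes as a whole, as given at the end. The order within a group was not that of PBK, which was lowest in M5 replicate 2 and, among M5_O5, in replicate 3. The log2 CPM of PBK minus this mean was -1.63, -1.81, -2.28 and -1.78 in M5_O5 and -1.60, -2.66, -1.85 and -2.32 in M5, with overlapping ranges. All 30 genes passed, higher in M5_O5, and 24 of them by at least 2-fold, with a median log2 fold change of 1.14 beside 0.01 for all genes tested. Among all genes tested, 19.5% passed higher in M5_O5, and 3.2% passed by at least 2-fold in either direction. Over the 5 settings applied to the lists, 29 or 30 passed, ASPM being the one lost, and 14 passed by at least 2-fold with the trend with expression level removed and 17 with limma on log2(TPM + 1). The largest were DLGAP5 (1.54), BIRC5 (1.53), TTK (1.45) and PLK1 (1.42), which serve the spindle and its checkpoint. The part of the number of dividing cells in the PBK result was not tested.

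**Figure D4:**
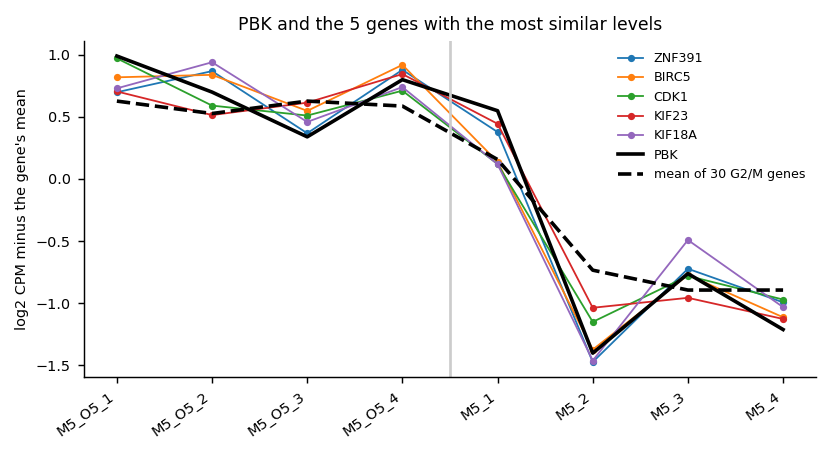
Log2 CPM of PBK (thick line), of the 5 genes closest to it (coloured lines) and the mean of the 30 G2/M genes (dashed), each with its own mean over the 8 libraries subtracted. All lines are high in the 4 M5_O5 libraries and low in M5 replicates 2 to 4. M5 replicate 1 lies above the other M5 libraries on every line, and for PBK and ZNF391 also above M5_O5 replicate 3.

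Partners and substrates of TOPK were split. Of 11 such genes, 7 rose and 2 fell in M5_O5 and 2 did not pass, with a median log2 fold change of 0.26, beside 19.5% higher and 17.6% lower over all genes. Those that rose included CDK1 (1.37, adjusted p = 0.00031), CCNB1, the cyclin of CDK1 (1.07, adjusted p = 1.03e-05), PRC1, which bundles microtubules of the central spindle (0.73, adjusted p = 0.00028), and the histone gene H2AX (0.45, adjusted p = 0.00167, all edgeR). CDK1, CCNB1 and PRC1 are also on the list of G2/M genes. The transcription factor genes JUN and STAT3 were the 2 that fell, at -0.40 and -0.21, and with library size alone 7 of the 11 were higher and 1, JUN, was lower. With RLE size factors and with the trend removed 5 of the 11 were higher. CDK1, CCNB1, PRC1 and H2AX passed under each of the 5 ways of scaling and testing that were applied to the lists. JUN also passed under all 5, and STAT3 under 2.

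Other MAP kinases moved in both directions. Of 8 genes examined, MAPK4 had at most 1 read in a library and was not tested. MAPK12, the p38γ, stood at 13.7 ± 1.1 CPM in M5_O5 and 10.3 ± 0.9 CPM in M5 (SD, n = 4) (log2 fold change 0.41, adjusted p = 0.00419, edgeR), and took 15.4% of the p38 transcripts in M5_O5 against 11.5% in M5. MAPK15, an atypical MAP kinase, rose by 0.48 (adjusted p = 0.00351, edgeR), and both passed under all 5 settings. MAPK7 (ERK5) fell by 0.27 on the log2 scale (adjusted p = 0.0146, edgeR) and passed under 3 of the 5 settings. It did not pass with library size alone (-0.15, adjusted p = 0.117, edgeR) or on log2(TPM + 1) (-0.13, adjusted p = 0.174, limma). The others had log2 fold changes of -0.24 for MAPK11 (p38β), -0.13 for MAPK6, 0.05 for NLK and 0.03 for MAPK10, with adjusted p-values of 0.0502 to 0.958 (edgeR), and MAPK11 passed under 2 of the other settings, lower in M5_O5. Of the 7 tested, 2 were higher and 1 was lower in M5_O5, beside 19.5% higher and 17.6% lower over all genes. Their median was 0.03.

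Of the 4 remaining MAP kinase kinases, 3 were lower in M5_O5 under TMM, beside 17.6% lower over all genes. MAP2K1 and MAP2K2 (MEK1 and MEK2), which activate ERK, were at -0.18 (adjusted p = 0.031) and -0.24 (adjusted p = 0.00388), and MAP2K7 (MKK7), which activates JNK beside MAP2K4, was at -0.23 (adjusted p = 0.00964, all edgeR). MAP2K5, the activator of ERK5, was at 0.16 (adjusted p = 0.217, edgeR). These calls depended on the scaling: with library size alone, none of the 3 passed (-0.07, -0.12 and -0.11) and MAP2K5 passed at 0.27. With limma on log2(TPM + 1) none of the 4 passed, and with the trend with expression level removed only MAP2K7 did. MAP2K1 and MAP2K2 each passed under 2 of the 5 settings and MAP2K7 under 3.

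Further up the relay, 9 of 25 tested MAP kinase kinase kinases and TAK1 partners were lower in M5_O5, none was higher, and 16 did not pass, with a median log2 fold change of -0.12, beside 17.6% lower over all genes. The largest differences were in MAP3K20 (ZAK, a sensor of stalled ribosomes; -0.46), MAP3K9 (-0.42), MAP3K4 (-0.38) and MAP3K6 (-0.33), with adjusted p-values of 7.5e-05 to 0.00476 (edgeR). With library size alone 4 of the 25 were lower and 2 higher, and with limma on log2(TPM + 1) 2 were lower and 1 higher. MAP3K4 and MAP3K6 passed under 4 of the 5 settings, and MAP3K20 and MAP3K9 passed under all 5 settings.

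Downstream, 2 of 11 kinases activated by MAP kinases were higher, 4 were lower and 5 did not pass, with a median of -0.08, beside 19.5% higher and 17.6% lower over all genes. Over the 5 settings 1 or 2 were higher and 2 to 4 lower. The related p38 targets MAPKAPK2 (MK2) and MAPKAPK3 (MK3) moved in opposite directions, at -0.39 (adjusted p = 0.000203) and 0.38 (adjusted p = 0.00835, edgeR), and both kept their direction and passed under all 5 settings. MAPKAPK2 stood at 118.7 ± 4.0 CPM in M5_O5 and 155.3 ± 11.0 CPM in M5, and MAPKAPK3 at 22.22 ± 1.11 and 16.99 ± 2.77 CPM (SD, n = 4). RPS6KA2, an RSK kinase activated by ERK, was at -0.59 (adjusted p = 4.4e-05, edgeR). RPS6KA6 was at 1.01 (adjusted p = 0.0142, edgeR) but rested on 5 to 22 reads and passed under 3 of the 5 settings.

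Genes on the list of MAP kinase phosphatases were mostly lower in M5_O5 under TMM. Of 12 tested, 8 were lower, 2 were higher and 2 did not pass, with a median of -0.29, beside 17.6% lower and 19.5% higher over all genes. DUSP16, which acts on JNK and p38, was at -0.67 (adjusted p = 1.19e-05), DUSP22 at -0.44 (adjusted p = 0.000312) and DUSP8 at -0.41 (adjusted p = 0.00841), while DUSP9, which acts mainly on ERK, was at 0.88 (adjusted p = 0.00599, all edgeR) from 22 to 73 reads. With library size alone 4 were lower and 3 higher, and with limma on log2(TPM + 1) 2 were lower and 2 higher, while DUSP16 and DUSP9 passed under all 5 settings and DUSP22 and DUSP8 under 4. Scaffold genes gave 2 higher, 3 lower and 3 that did not pass of 8 tested, with a median of -0.11, and over the 5 settings 0 to 3 were higher and 1 to 3 lower. MAPK8IP3 (JIP3) was at -0.51 (adjusted p = 2.3e-05), IQGAP1 at -0.25 (adjusted p = 0.00568), MAPK8IP2 (JIP2) at 0.70 (adjusted p = 0.015) and KSR1 at 0.34 (adjusted p = 0.0431, all edgeR), and of these MAPK8IP3 passed under all 5 settings, MAPK8IP2 under 4, KSR1 under 3 and IQGAP1 under 2.

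**Figure D5:**
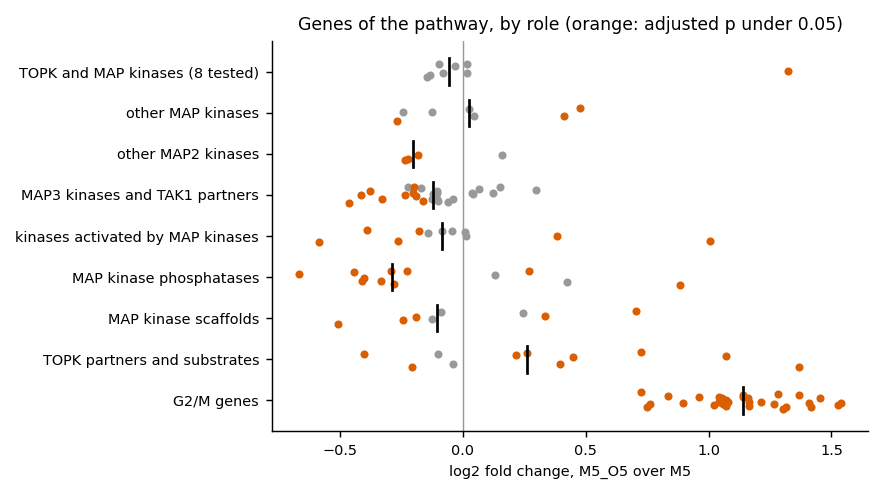
Log2 fold change of M5_O5 over M5 (edgeR) for the tested genes of each list, a point per gene, orange where the adjusted p was under 0.05, with the median of a list as a black bar. PBK stands apart from the 7 other tested kinases at 1.32, within the range of the G2/M genes (0.73 to 1.54), and the medians of the lists of MAP2 and MAP3 kinases, activated kinases, phosphatases and scaffolds lie between -0.29 and -0.08 with TMM, while over the 5 settings those of the MAP3 kinases, the activated kinases and the scaffolds reached 0.01, 0.06 and 0.01.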

How the data were processed

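RNA was prepared from HaCaT cells with the SMARTER kit named in the labels, and strandedness is not given in the sources used here. The study's methods name HISAT2 and StringTie, whereas the submitters' processing notes list HISAT2 2.1.0, Bowtie2 2.2.5, RSEM 1.2.8 and the mouse build mm10. The transcripts of the table are human RefSeq entries, and their human build is not given in the sources used here. The authors deposited estimated counts per transcript, not normalized. The deposited TPM values divide by transcript length and scale each library to a fixed sum. The deposited FPKM values, which divide by length and depth, were not used. Estimated counts were summed per Entrez gene and rounded. Symbols came from the RefSeq table of GRCh38.p14, and 59 genes without one held at most 0.0201% of a library.

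Genes kept by filterByExpr (12434) were scaled by TMM and compared with edgeR 4.0.16 (R 4.3.3, quasi-likelihood test, Benjamini-Hochberg, threshold 0.05), without a block. DESeq2 1.42.0 and limma 3.58.1 served as alternatives, with other scalings, filters, pseudocounts and left-out libraries. The scripts were tested on simulated data. The 5 settings applied to the lists were TMM, RLE size factors, library size alone, removal of the trend with expression level, and limma on log2(TPM + 1), whose fold changes understate low genes. Transcript use was tested with diffSplice, which does not cover the uncertainty of assigning reads. The members and gene lists were chosen with earlier results of these data known. Named genes were the 9 members, the 5 closest to PBK, all tested MAP kinases of the list and MAP kinase kinases, and from each further list up to 4 passing genes with the largest change. JUN and STAT3 were added after their values were seen. Some planned items, among them 1 ratio, are not reported here.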

Additional observations from a re-analysis of the deposited data

Results flagged for a closer look

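Of 28 groups of 4 libraries examined for a library far from its group, 3 had one, and chance gives about 1 in 20 groups. MAPK14 stood at 64.8 CPM in M5 replicate 1 and at 59.8 to 60.4 CPM in the other M5 libraries. The mean log2 CPM of the G2/M genes was 3.06 in M5 replicate 1 and 2.01 to 2.17 in the other M5 libraries. The log2 ratio of MAPK13 to MAPK14 was 0.46 in M5_O5 replicate 1 and 0.66 to 0.70 in the other M5_O5 libraries. M5 replicate 1 had the fewest counts, 13708044, and without it 5376 genes passed, against 4612 with all libraries. Over genes with enough reads, the chi-square per gene between 2 M5 libraries was 10.35 to 16.49 in pairs with replicate 1. In pairs of the other M5 libraries it was 2.03 to 4.06. Among M5_O5 it was 7.11 to 11.1 with replicate 1 and 3.05 to 7.15 without.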

How the results depend on the processing

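PBK stayed higher in M5_O5 and passed under all 8 other settings that tested it (log2 fold change 0.99 to 1.54) and without each library in turn (1.10 to 1.98). With a minimum of 10 reads in every library PBK was not tested and 0 members passed, and with unadjusted p-values 2 passed, PBK and MAPK13. Libraries of the same replicate number had correlations of -0.004 to 0.209, and those of different numbers -0.201 to 0.206. Whether the libraries were paired was not tested. With a replicate block PBK was at 1.36 (adjusted p = 0.000979, edgeR) and 1 member passed. The genes passing then numbered 5255, against 4612 without the block. Genes passing with at least 2-fold numbered 398, and 152 with limma on log2(TPM + 1).

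None of the 7 other tested members passed an adjusted p of 0.05 in any of 119 combinations of a member and a setting, the lowest adjusted p being 0.0546 (edgeR), but signs turned in 15. With library size alone MAPK3 was at 0.019, MAP2K3 at 0.083 and MAP2K4 at 0.034, and with the expression trend removed MAP2K3 was at 0.046. DESeq2 gave -0.003 for MAPK9 and -0.002 for MAPK14. Limma gave 0.074, 0.09 and 0.057 for MAPK8, MAP2K3 and MAP2K4 on log2(TPM + 1) and 0.079, 0.091 and 0.058 on log2(TPM + 0.1). Without each library in turn, MAPK3 ranged from -0.212 to 0.004, MAPK9 from -0.009 to 0.044 and MAPK14 from 0 to 0.043. The ratio of MAPK13 to MAPK14 then ranged from -0.192 to -0.093, MAPK8 to MAPK9 from -0.213 to -0.13 and MAP2K3 to MAP2K6 from 0.026 to 1.225. The cause of these turns was not tested. The reads of PBK (9 to 62) and MAP2K6 (2 to 20) were the fewest.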
